A study of Mus musculus with 8 samples.

Results

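The genes described here encode ribosome biogenesis and nucleolar factors, 46 genes taken from a list of names and measured in macrophages with and without a load of modified lipoprotein. Each gene was represented by the probe set whose annotation names it alone, with the highest mean over the 8 arrays where there were several, and all 46 listed genes had such a probe set. They are 46 of the 20258 genes or groups of genes with shared probe sets that were tested. The list was not chosen from values of these arrays by a threshold, but it was drawn up with results of the same arrays known.

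Ribosomes are assembled in the nucleolus, where RNA polymerase I transcribes the long precursor of the ribosomal RNAs. Small nucleolar ribonucleoproteins (snoRNPs) then modify that precursor, with box C/D particles guiding 2′-O-methylation and box H/ACA particles guiding the conversion of uridine to pseudouridine. The small subunit processome and the large subunit assembly factors cleave, fold and package the RNA with ribosomal proteins before export to the cytoplasm.

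Thioglycollate, an irritant broth, was injected into C57BL/6J mice, and the macrophages it had drawn into the peritoneum were taken 5 days later. They were cultured in DMEM with 10% FBS, either without further agent (unloaded, 4 arrays) or with acetylated low-density lipoprotein (acLDL, 4 arrays), which scavenger receptors take up. Dose and time are not settled, since the labels of the samples state 20 µg/mL for 3 days while the text on the design states 50 µg/mL for 2 days. No animal carried a stated transgene or deletion, and no age or number of mice per culture is stated. Replicates are called biological and independent in the text on the design, with no word on which mice each came from, and p-values measure the spread between these arrays.

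Total RNA was read on whole-transcript arrays as log2 expression, so a difference of 1 is a 2-fold change, and all differences below are acLDL minus unloaded. Arrays correlated at 0.994 to 0.997 within groups and at 0.989 to 0.991 between groups across genes, and 0 pairs were identical. In all 46 genes the mean level lay above 6.13, the 95th percentile of 1015 genes for olfactory receptors, taken as a mark of background. Macrophage markers stood at means of 7.49 to 12.89 over the arrays, led by Cd68. Of 8 measured, 4 rose and 1 fell (limma adjusted p under 0.05), with differences from -0.33 (Cd14) to 0.71 (Fcgr1). Markers of T, natural killer, neutrophil and dendritic cells stood at 6.60 or less, and in those lists 0 genes rose and 3 of 25 fell (limma adjusted p under 0.05). Of 7 mast cell and eosinophil markers 0 rose and 2 fell, Siglecf from 7.97 ± 0.13 to 7.37 ± 0.09 (SD, n = 4) and Cma1 from 5.78 ± 0.07 to 5.51 ± 0.07. Cma1 and the 3 markers that fell in the lists before had means below 6.13 in both groups, so their falls cannot be relied on. Of 9 fibroblast and mesothelial markers 0 rose and 2 fell, Dcn from 10.74 ± 0.13 to 10.48 ± 0.09 and Col1a2 from 9.67 ± 0.16 to 9.30 ± 0.05, and the other 7 differed by -0.23 (Pdgfra) to 0.14 (Wt1). Of 5 B cell markers 0 passed, with Cd22 at 8.09 ± 0.06 and 8.16 ± 0.07. Whether a shift in cell types has a part in the results below was not tested, and in bulk RNA fewer cells of a type and less RNA per cell cannot be told apart.

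Ribosome biogenesis genes moved in both directions with acLDL. At an adjusted p under 0.05 in limma, 10 of the 46 rose and 7 fell, which is 37.0% of them against 23.4% of all genes tested. Rises made up 21.7% against 12.8% of all genes, and falls 15.2% against 10.6%. Over all genes that is 2593 rises and 2154 falls, which became 2831 and 1431 when arrays were centred on the median of all deposited probe sets. The median log2 difference of the 46 genes was 0.08, against 0.00 over all genes, and the median size without sign was 0.16 against 0.11. The values of the 2 groups did not overlap in 20 of the 46 genes (12 higher, 8 lower with acLDL), or 43.5% against 25.7% of all genes. All 46 lay above the background mark, while all genes tested include genes below it. Shares of all genes, here and below, are therefore not matched for level, and the part of level in these gaps was not tested.

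Most changes were small. Rrs1 fell 2.01-fold and Rrp9 rose by 0.59 on the log2 scale, and the other 15 called genes changed by less than 1.5-fold. When the arrays were quantile normalised again, 10 genes rose and 13 fell, so that the balance turned toward falls. Leaving out unloaded arrays 2 and 3 gave 8 rises and 11 falls, beside 2462 and 2295 over all genes. Leaving out unloaded arrays 1 and 4 gave 14 and 6, beside 2582 and 2063 over all genes. Across all 20 alternatives 14 of the 17 called genes kept their call, 8 higher and 6 lower. Those that lost it in some were Polr1e, Nop2 and Tsr1. The genes that kept it include Fbl, but no alternative used its second probe set, described below, alone. Of the 29 genes that did not pass, 14 gained a call in at least 1 alternative.

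**Figure D1:**
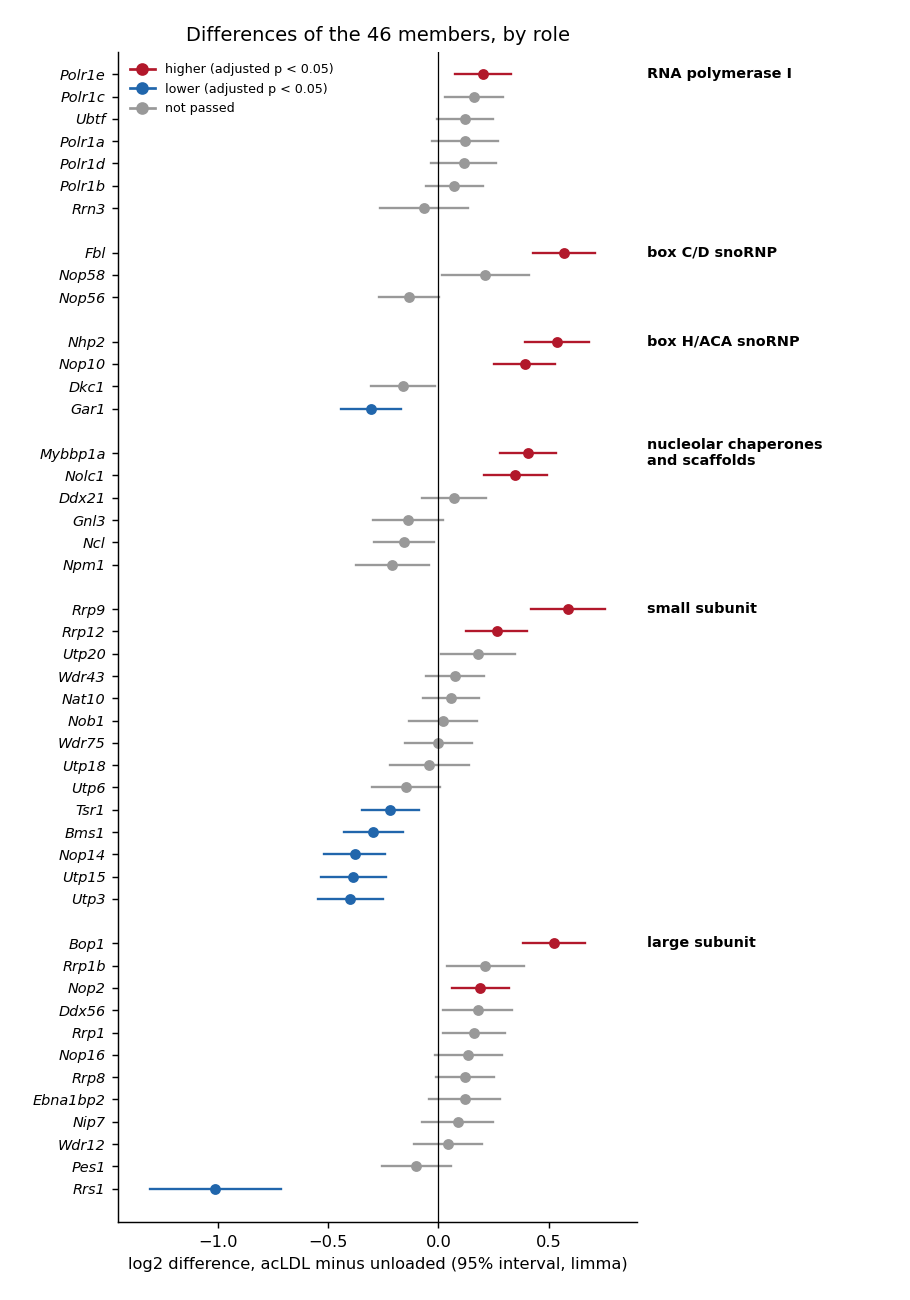
Log2 differences (acLDL minus unloaded) of the 46 genes, grouped by role, with 95% intervals from limma. Points in red passed the test as higher and points in blue as lower. The small subunit group holds 5 of the 7 genes that fell, and Rrs1 lies furthest from 0 at -1.01.

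Of 7 genes for RNA polymerase I and its factors 1 rose and 0 fell (limma adjusted p under 0.05; 2 at an unadjusted p under 0.05). That is 14.3% called against 23.4% of all genes, and the differences ran from -0.07 to 0.20. The gene that rose was Polr1e, which encodes a subunit that helps the polymerase initiate. Its level was 7.07, 7.02, 7.05 and 7.13 in unloaded arrays 1 to 4 and 7.23, 7.25, 7.33 and 7.26 in acLDL arrays 1 to 4. The groups lay apart, and the difference was 0.20 ± 0.06 (SE; limma adjusted p = 0.0235). The call was lost in 6 of 20 alternatives. The adjusted p was 0.0616 without unloaded array 2, and 0.0503, 0.0711 and 0.0521 without acLDL arrays 2, 3 and 4.

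The 2 large catalytic subunits did not pass. Polr1a differed by 0.12 (95% interval -0.03 to 0.27) and Polr1b by 0.07 (-0.06 to 0.20). Polr1c, a subunit shared with RNA polymerase III, stood at 8.32 ± 0.06 unloaded and 8.48 ± 0.05 with acLDL (SD, n = 4), with groups that did not overlap and an adjusted p of 0.0724 in limma. The same held for Ubtf, the upstream binding factor that keeps ribosomal DNA open, at 8.92 ± 0.06 and 9.04 ± 0.03 (adjusted p = 0.158).

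Rrn3, the factor that couples the polymerase to its promoter, is an example of spread among unloaded cultures. Unloaded arrays 1 to 4 read 8.63, 8.32, 8.41 and 8.80, and acLDL arrays read 8.54, 8.48, 8.43 and 8.43. All acLDL values fall within the unloaded range, and the difference was -0.07 ± 0.09 (SE; limma adjusted p = 0.657). Without unloaded arrays 2 and 3 it was -0.24 (adjusted p = 0.0364).

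Among the core proteins of box C/D particles the probe sets disagreed. Fbl encodes fibrillarin, the methyltransferase of the particle. The probe set used read 7.97, 7.82, 7.93 and 7.88 in unloaded arrays and 8.57, 8.35, 8.46 and 8.50 in acLDL arrays, a rise of 0.57 ± 0.07 (SE; limma adjusted p = 4.45e-05). A second probe set that names Fbl alone stood at 7.14 ± 0.16 and 7.13 ± 0.05 (SD, n = 4), a difference of -0.02 with a 95% interval of -0.18 to 0.15. The arrays therefore do not settle a direction for Fbl, and its count among the rises belongs to 1 of its 2 probe sets.

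The scaffold genes Nop56 and Nop58, whose products bind the guide RNA beside fibrillarin, did not pass. Nop56 read 8.77, 8.74, 8.61 and 8.79 unloaded and 8.61, 8.61, 8.52 and 8.63 with acLDL, a difference of -0.13 (95% interval -0.27 to 0.00; limma adjusted p = 0.156, and 0.0256 after quantile normalisation). Nop58 differed by 0.21 (0.02 to 0.41; adjusted p = 0.114), with acLDL arrays 2 and 4 at 8.18 and 8.20 and arrays 1 and 3 at 7.83 and 7.89. Snu13, which binds the kink-turn of the guide RNA and belongs to the assembly genes described further on, rose by 0.40 ± 0.06 (SE; limma adjusted p = 0.000420).

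Of the 4 genes for proteins of the box H/ACA particle 2 rose, 1 fell and 1 did not pass, or 75.0% called against 23.4% of all genes. Nhp2, which contacts the guide RNA, rose by 0.54 ± 0.07 (SE; limma adjusted p = 7.70e-05), from 8.24, 8.15, 7.99 and 8.19 to 8.62, 8.69, 8.67 and 8.75. Nop10, the small protein that braces the catalytic core, rose by 0.39 ± 0.06 (adjusted p = 0.000667), from 8.23, 8.11, 8.10 and 8.02 to 8.51, 8.55, 8.42 and 8.54. In both genes every acLDL array was above every unloaded array.

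Gar1, which helps the particle release its substrate, fell by 0.30 on the log2 scale (SE 0.06; limma adjusted p = 0.00327). Its unloaded values were 8.30, 8.27, 8.27 and 8.39 and its acLDL values 7.99, 7.93, 8.11 and 7.98, again without overlap. Dkc1, encoding dyskerin, the pseudouridine synthase itself, stood at 7.21 ± 0.07 and 7.05 ± 0.09 (SD, n = 4), a difference of -0.16 (95% interval -0.31 to -0.02) that did not pass (limma adjusted p = 0.107; 0.0308 after quantile normalisation). The 95% intervals of Nhp2 (0.39 to 0.68) and Gar1 (-0.44 to -0.17) lie on opposite sides of 0. These calls for Nhp2, Nop10 and Gar1 held in all 20 alternatives.

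Because Nhp2 and Gar1 act in the same particle and moved apart, their promoters are shown, from 250 bases before to 50 bases after the RefSeq start site (GRCm38.p6). The Nhp2 promoter lies at chr11:51619523-51619822, plus strand, and that of Gar1 at chr3:129831347-129831646, minus strand. Capitals mark matches to CCGGAAGT, a core for ETS family factors, on either strand.
Nhp2: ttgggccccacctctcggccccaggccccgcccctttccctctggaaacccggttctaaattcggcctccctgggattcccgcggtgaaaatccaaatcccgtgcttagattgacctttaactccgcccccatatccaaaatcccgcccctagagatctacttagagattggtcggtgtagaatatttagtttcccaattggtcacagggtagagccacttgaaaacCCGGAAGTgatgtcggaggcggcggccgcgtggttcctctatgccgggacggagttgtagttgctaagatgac
Gar1: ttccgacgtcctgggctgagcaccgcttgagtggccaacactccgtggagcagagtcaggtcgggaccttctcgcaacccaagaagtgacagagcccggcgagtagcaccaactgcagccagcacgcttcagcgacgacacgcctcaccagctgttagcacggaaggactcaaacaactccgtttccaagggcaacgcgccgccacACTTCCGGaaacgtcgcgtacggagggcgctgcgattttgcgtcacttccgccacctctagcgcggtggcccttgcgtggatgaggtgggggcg
The match begins 23 bases before the start site in Nhp2 and, on the other strand, 44 bases before it in Gar1, so that a gene that rose and a gene that fell both hold it. Of the 46 genes 40 had a promoter in the RefSeq table. CCGGAAGT was found in 10 of those 40 (25.0%; 2 of the 10 rose and 4 fell), against 6.01% of 15614 tested genes with a promoter of the same length. CACGTG, the E-box bound by MYC and related factors and a palindrome, was found in 8 of 40 (20.0%; 2 rose and 1 fell), against 9.50%. Beside these counts of rises and falls, 37.0% of the 46 genes and 23.4% of all genes tested were called. A link between a motif and the calls was not tested. A match does not show binding, and the arrays measured RNA alone.

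Of 6 genes for nucleolar chaperones and scaffolds, 2 rose and 0 fell (limma adjusted p under 0.05; 4 at an unadjusted p under 0.05). That is 33.3% called against 23.4% of all genes. After quantile normalisation 3 of them fell, Ncl, Npm1 and Gnl3 (adjusted p = 0.0347, 0.0262 and 0.0284). Mybbp1a, a MYB-binding protein that resides in the nucleolus, read 8.82, 8.72, 8.74 and 8.76 in unloaded arrays and 9.23, 9.12, 9.14 and 9.19 in acLDL arrays. The rise was 0.41 ± 0.06 (SE; limma adjusted p = 0.000248) and the groups lay well apart. Nolc1, a phosphoprotein that ferries snoRNPs, rose by 0.35 ± 0.07 (adjusted p = 0.00178), from 8.09 ± 0.10 to 8.44 ± 0.04 (SD, n = 4).

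The Mybbp1a promoter, at chr11:72441077-72441376, plus strand (GRCm38.p6), is shown since this gene had the smallest adjusted p among the called genes with an E-box. Capitals mark CACGTG, which begins 40 bases after the start site.
Mybbp1a: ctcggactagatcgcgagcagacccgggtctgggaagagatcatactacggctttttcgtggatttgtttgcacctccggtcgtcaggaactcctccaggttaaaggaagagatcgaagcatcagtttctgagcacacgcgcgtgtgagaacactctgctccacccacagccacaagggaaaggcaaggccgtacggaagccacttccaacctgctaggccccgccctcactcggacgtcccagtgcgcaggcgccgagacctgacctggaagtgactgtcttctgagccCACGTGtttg

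Ncl and Npm1, the abundant proteins nucleolin and nucleophosmin, had lower means with acLDL and did not pass. Ncl read 10.38, 10.21, 10.19 and 10.30 unloaded and 10.09, 10.08, 10.15 and 10.13 with acLDL. Its groups did not overlap, and the difference was -0.16 (95% interval -0.29 to -0.02; limma adjusted p = 0.0919). Npm1 read 9.95, 9.79, 9.82 and 10.01 unloaded and 9.56, 9.79, 9.59 and 9.79 with acLDL, a difference of -0.21 ± 0.08 (SE; adjusted p = 0.0663). Besides quantile normalisation, both passed as lower with a trended robust prior in limma (adjusted p = 0.0213 and 0.0175) and without unloaded arrays 2 and 3 (0.0320 and 0.0283), and Npm1 also among genes with a mean level of at least 6 (0.0432).

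Npm1 was also read by 3 probe sets that the annotation shares with Gm15484. They fell by 0.27, 0.24 and 0.26 on the log2 scale, with adjusted p-values of 0.0103, 0.0208 and 0.0197 in a limma fit over every annotated probe set, and in each the groups lay apart. The share of signal from Npm1 and from Gm15484 in these sets cannot be told apart. Gnl3, encoding nucleostemin, and Ddx21, an RNA helicase, differed by -0.14 (95% interval -0.29 to 0.02) and 0.07 (-0.07 to 0.21).

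**Figure D2:**
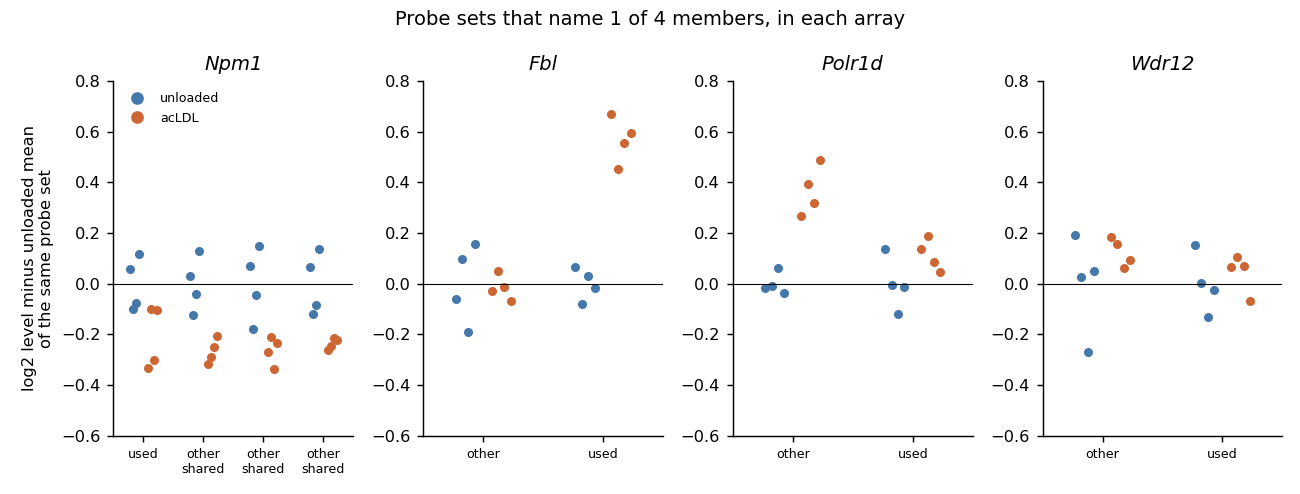
Log2 level in each array, relative to the unloaded mean of the same probe set, for the 4 genes named by more than 1 probe set. The 3 shared Npm1 sets lie below 0 in all acLDL arrays, and Fbl and Polr1d differ between their probe sets.

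For Polr1d both probe sets had higher means with acLDL, and they differed in size and in the call. The probe set used differed by 0.11 (95% interval -0.03 to 0.26; limma adjusted p = 0.262). The second stood at 7.52 ± 0.04 and 7.89 ± 0.10 (SD, n = 4) and rose by 0.37 (95% interval 0.23 to 0.51; adjusted p = 0.00104 in the fit over every annotated probe set). With the probe sets of a gene averaged, Polr1d passed as higher (0.24; limma adjusted p = 0.00843). The 2 probe sets of Wdr12 differed by 0.04 and 0.12, and neither passed.

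Of 14 small subunit genes 2 rose and 5 fell (limma adjusted p under 0.05), or 50.0% called against 23.4% of all genes, and the median difference was -0.02. They held 5 of the 7 falls, and 6 of 13 after quantile normalisation, when Utp6 passed as well (adjusted p = 0.0221). Utp3, a processome protein, read 7.93, 7.85, 7.67 and 7.83 in unloaded arrays and 7.50, 7.38, 7.41 and 7.40 in acLDL arrays. It fell by 0.40 on the log2 scale (SE 0.07; limma adjusted p = 0.000845), and no acLDL array reached the lowest unloaded one.

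Utp15, of the subcomplex that joins the processome to transcription, fell by 0.38 (adjusted p = 0.00118), from 8.61, 8.47, 8.60 and 8.61 to 8.08, 8.30, 8.12 and 8.25. Nop14, a nucleolar protein needed for early cleavage, fell by 0.38 (adjusted p = 0.000847), from 8.95 ± 0.09 to 8.57 ± 0.05 (SD, n = 4). Bms1, a GTPase of the processome, fell by 0.29 (adjusted p = 0.00362), from 8.66 ± 0.07 to 8.36 ± 0.05. In all of these the groups did not overlap.

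Tsr1, which resembles Bms1 and acts late on the cytoplasmic precursor of the small subunit, fell by 0.22 on the log2 scale (SE 0.06; limma adjusted p = 0.0174), from 8.76, 8.70, 8.77 and 8.73 to 8.52, 8.47, 8.48 and 8.62. Its call was lost without acLDL array 2 (adjusted p = 0.0566), without unloaded arrays 1 and 4 (0.0507) and with arrays centred on the median of all deposited probe sets (0.0828). The Tsr1 promoter, at chr11:74897830-74898129, plus strand (GRCm38.p6), is shown since it was the called gene that held both motifs, CCGGAAGT from 1 base before the start site and CACGTG from 24 bases after it, in capitals.
Tsr1: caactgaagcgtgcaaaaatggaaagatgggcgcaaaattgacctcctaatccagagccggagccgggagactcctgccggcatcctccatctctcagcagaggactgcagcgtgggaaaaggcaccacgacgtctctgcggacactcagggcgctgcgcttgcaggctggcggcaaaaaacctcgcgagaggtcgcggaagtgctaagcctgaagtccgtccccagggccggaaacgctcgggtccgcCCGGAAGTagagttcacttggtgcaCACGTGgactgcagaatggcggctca

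Rrp9 and Rrp12 went the other way. Rrp9, a protein specific to the U3 snoRNP that guides the first cleavages, read 7.42, 7.13, 7.26 and 7.42 unloaded and 7.97, 7.77, 7.88 and 7.95 with acLDL. Its rise of 0.59 ± 0.08 (SE; limma adjusted p = 0.000125) was the highest among the 46 genes. Rrp12, an export factor of both subunits, rose by 0.27 ± 0.06 (adjusted p = 0.00867), from 7.52 ± 0.09 to 7.79 ± 0.05 (SD, n = 4).

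The other 7 small subunit genes did not pass, with differences from -0.15 for Utp6 to 0.18 for Utp20. Wdr75 and Wdr43, partners of Utp15 in the same subcomplex, differed by 0.00 (95% interval -0.15 to 0.15) and 0.08 (-0.05 to 0.21). Nat10, the acetyltransferase that modifies cytidines of the small subunit RNA, differed by 0.06 (-0.07 to 0.18). Nob1, the endonuclease of the last cleavage, differed by 0.02 (-0.13 to 0.18).

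Of 12 large subunit genes 2 rose and 1 fell (limma adjusted p under 0.05), or 25.0% called, which is near the 23.4% of all genes. Bop1, Pes1 and Wdr12 encode the PeBoW complex, which processes the RNA of the large subunit. Bop1 rose by 0.52 ± 0.07 (SE; limma adjusted p = 7.68e-05), from 8.03, 7.86, 8.02 and 8.02 to 8.53, 8.47, 8.43 and 8.60. Pes1 differed by -0.10 (95% interval -0.26 to 0.06) and Wdr12 by 0.04 (-0.11 to 0.20), and the interval of Bop1, 0.38 to 0.67, lies above both. The difference between these changes was not itself tested.

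Rrs1, which brings the 5S ribonucleoprotein into the large subunit, showed the largest change of the 46 genes and the widest spread. It read 8.48, 8.57, 8.55 and 8.61 in unloaded arrays and 7.19, 7.96, 7.26 and 7.76 in acLDL arrays. All acLDL values were lower, with arrays 1 and 3 below arrays 2 and 4. The mean fell from 8.55 ± 0.05 to 7.54 ± 0.38 (SD, n = 4), a log2 difference of -1.01 ± 0.14 (SE; limma adjusted p = 0.000148), and it ran from -1.15 to -0.89 over the 20 alternatives.

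Nop2, a cytosine methyltransferase of the large subunit RNA, read 8.29, 8.34, 8.28 and 8.33 unloaded and 8.49, 8.47, 8.46 and 8.59 with acLDL. It rose by 0.19 ± 0.06 (SE; limma adjusted p = 0.0327) with groups apart, but it was called in only 10 of 20 alternatives. Without unloaded arrays 1, 3 and 4 in turn the adjusted p was 0.0554, 0.0629 and 0.0566, and without acLDL arrays 1, 2 and 4 in turn it was 0.0641, 0.0555 and 0.106.

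The other large subunit genes, Pes1 and Wdr12 aside, all had differences above 0 and did not pass. They ran from 0.09 for Nip7 to 0.21 for Rrp1b, a partner of a nucleolar protein phosphatase, with Ebna1bp2 and Rrp8 at 0.12, Nop16 at 0.14, Rrp1 at 0.16 and the helicase gene Ddx56 at 0.18. Without unloaded array 4, Ddx56 (0.24, adjusted p = 0.0295) and Rrp1b (0.28, adjusted p = 0.0214) passed in limma.

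**Figure D3:**
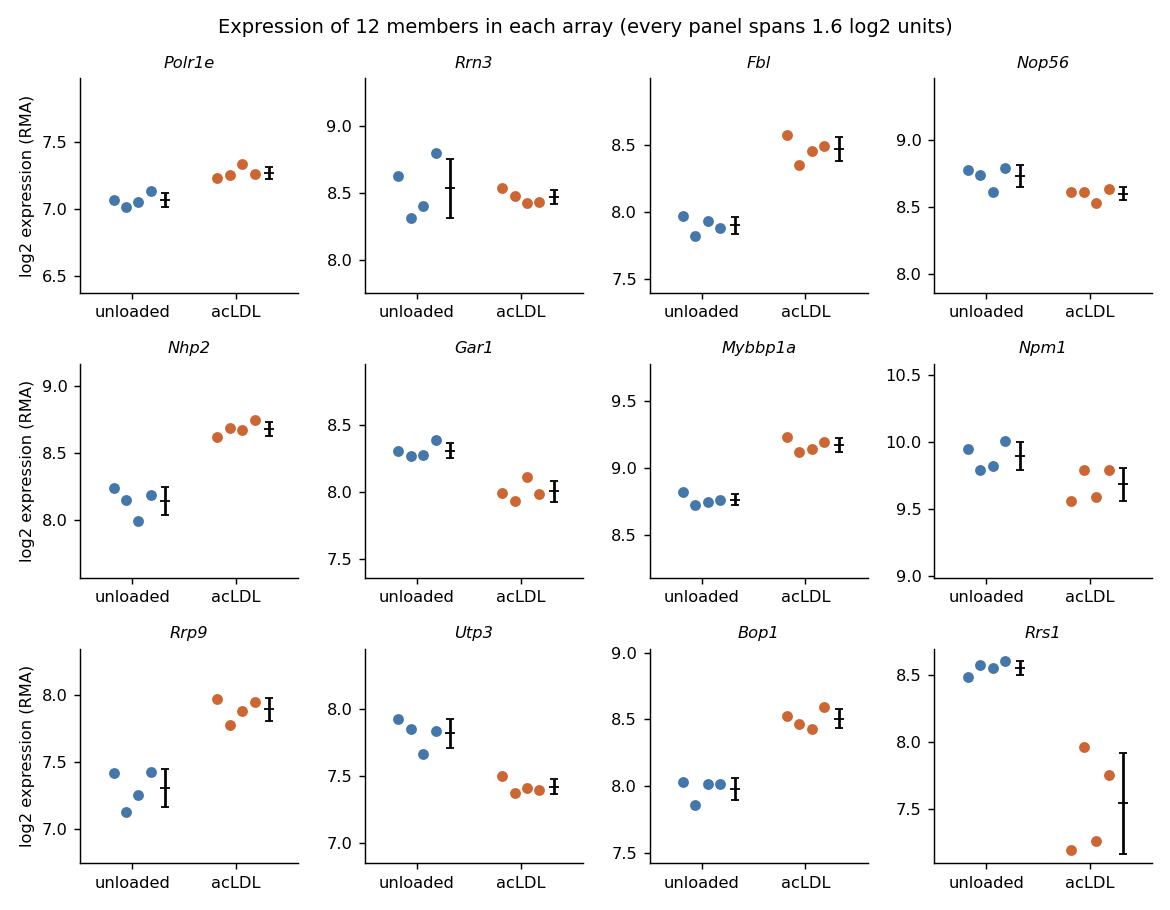
Log2 expression of 12 genes in each array, 2 per role, with the mean and SD (n = 4) beside the points. Nhp2 and Gar1, of the same particle, lie on opposite sides, and the acLDL values of Rrs1 spread from 7.19 to 7.96.

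Arrays of 1 group differed in the level of the 46 genes. The median deviation of the genes from their own mean over 8 arrays was 0.05, -0.10, -0.12 and 0.01 in unloaded arrays 1 to 4 and 0.04, 0.07, -0.02 and 0.06 in acLDL arrays 1 to 4. Over all genes tested the same median lay between -0.02 and 0.01 in every array. In unloaded arrays 2 and 3 only 13 and 10 of the 46 genes were above their own mean, against 30 and 24 in unloaded arrays 1 and 4. The group ranges overlap, and the lowest medians are those of 2 unloaded arrays.

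The correlation of an array's deviations with genomic span, across genes above background, was 0.23 and 0.21 in unloaded arrays 1 and 4 and between -0.20 and -0.01 in the other 6 arrays (Spearman, across genes, which are not independent). After removal of each array's trend with span, 10 of the 46 genes rose and 7 fell, the same counts as without it.

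**Figure D4:**
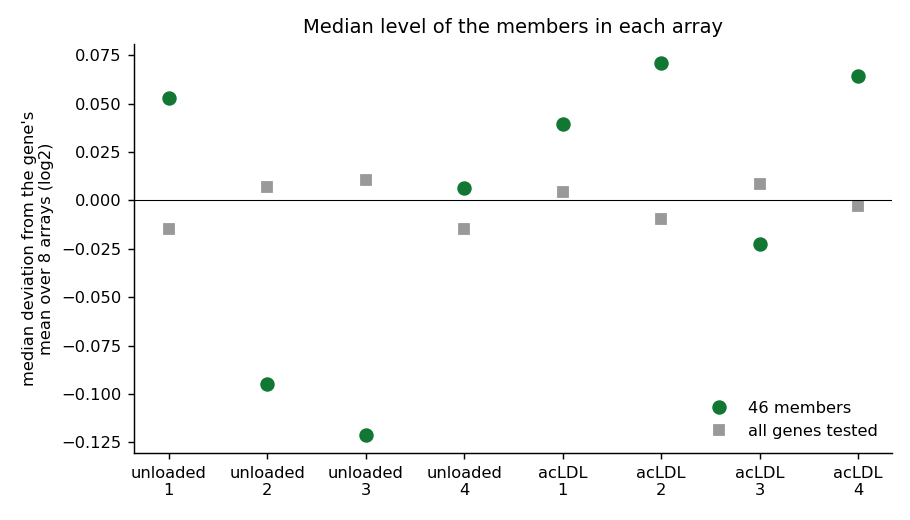
Median over the 46 genes (circles) and over all genes tested (squares) of the log2 deviation from each gene's mean over the 8 arrays. Unloaded arrays 2 and 3 have the lowest medians of the 46 genes, -0.10 and -0.12, while the squares stay between -0.02 and 0.01.

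Introns of nucleolar genes often carry snoRNA genes. RefSeq places 19 snoRNA genes inside 7 of the 46 genes, and 4 of them were measured by a probe set of their own. The probe sets inside Ncl lay below 6.13, the background mark named above, in every array, so neither their directions nor their sizes can be relied on. Snora75 read 5.60, 5.85, 6.12 and 6.07 unloaded and 4.91, 5.24, 5.00 and 5.22 with acLDL, a difference of -0.82 ± 0.11 (SE; limma adjusted p = 0.000131). Snord82 differed by 0.48 ± 0.14 (SE; adjusted p = 0.0220) with groups that overlapped. Snord57 inside Nop56 and Snord53 inside Wdr43 differed by 0.05 and 0.01 and did not pass. The group means of Snord53, 5.92 and 5.93, were also below 6.13, so its small difference cannot be relied on either.

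Other ribosome biogenesis genes, from lists of 123 names that do not include the 46, also went both ways. Of 117 measured, 27 rose and 16 fell in limma, or 36.8% called against 23.4% of all genes, and their median difference was 0.03. Among small subunit factors 9 of 43 rose and 5 fell, or 32.6% called. Imp3 and Imp4, proteins of the U3 snoRNP, rose by 0.88 ± 0.07 and 0.49 ± 0.06 (SE; limma adjusted p = 3.26e-06 and 0.000112), and Rcl1 and the helicase gene Ddx49 by 0.38 and 0.33. Mphosph10, the third partner of Imp3 and Imp4 and named after its value was seen, differed by -0.07 (95% interval -0.23 to 0.09).

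Among large subunit factors 10 of 45 rose and 6 fell, or 35.6% called against 23.4% of all genes. Mrto4, an assembly factor of the stalk, led the rises at 0.50. Wdr18 rose by 0.46 and the helicase genes Ddx51 and Ddx54 by 0.45 and 0.37. Of 9 genes for snoRNP assembly 4 rose and 0 fell, or 44.4% called (5 at an unadjusted p under 0.05). Znhit3 rose by 0.50, Snu13 by 0.40, and the ATPase genes Ruvbl2 and Ruvbl1 by 0.24 and 0.22. Of 15 exosome genes, whose complex trims ribosomal RNA ends, 4 rose and 2 fell. Exosc5 rose by 0.42, a probe set shared by Aars and Exosc6 by 0.38, and Exosc9 and C1d fell by 0.40 and 0.36 on the log2 scale.

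Of 5 other RNA polymerase I factors measured 0 rose and 3 fell in limma (3 at an unadjusted p under 0.05). Taf1a and Taf1b, subunits of the promoter selectivity factor, fell by 0.48 and 0.31 on the log2 scale (limma adjusted p = 0.00183 and 0.00373), and Ttf1, the terminator factor, by 0.37 (adjusted p = 0.00309). In all 3 the groups lay apart. The other subunit genes of the selectivity factor did not pass, Taf1c at -0.01 and Taf1d at 0.16 (limma adjusted p = 0.971 and 0.199). Among 18 genes of RNA polymerase III, which makes the 5S RNA, 3 rose and 1 fell, with the 5S factor gene Gtf3a higher by 0.50, Brf2 by 0.29 and Gtf3c1 by 0.18, and Brf1 lower by 0.32 on the log2 scale, which is near the background share at 22.2%.

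Ribosomal protein genes, the cargo of this pathway, leaned one way. Of 62 measured 35 rose and 2 fell, or 59.7% called against 23.4% of all genes, and the median difference was 0.24. Rpl36 rose by 1.10 ± 0.06 and Rpl37a by 1.08 ± 0.06 (SE; limma adjusted p = 9.22e-08 and 1.07e-07). A probe set shared by Gm32211 and Rpl39 rose by 0.96 and one shared by Snord32a and Rpl13a by 0.91. The 2 that fell were Rpl5, a partner of the 5S RNA, by 0.23 and Rps6 by 0.18 on the log2 scale. Ribosomal protein genes have many processed copies that probes may not tell apart, and 7 of the 62 probe sets were annotated to several symbols, so single values are uncertain.

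**Figure D5:**
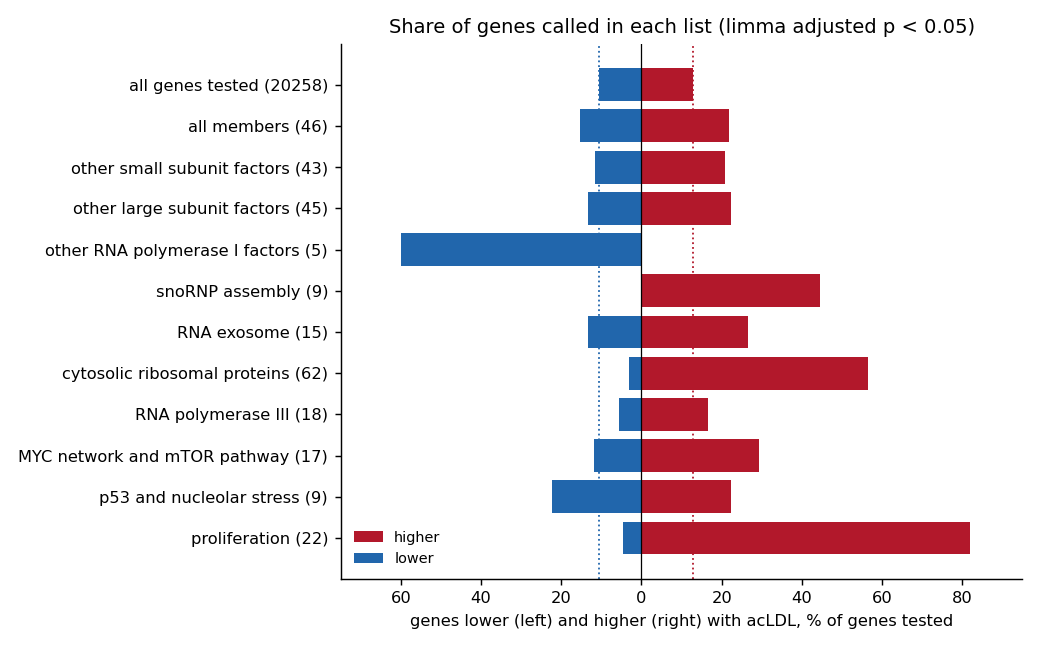
Share of genes that rose (right) and fell (left) with acLDL in each list, with the number tested in brackets and the share of all genes as dotted lines. Ribosomal protein genes rose in 56.5% and proliferation genes in 81.8%, while the 46 ribosome biogenesis genes split into 21.7% and 15.2%.

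Of 17 genes of the MYC network and the mTOR pathway, which control ribosome production, 5 rose and 2 fell in limma. The share called was 41.2%, against 23.4% of all genes. Myc read 7.60, 7.60, 7.46 and 7.71 in unloaded arrays and 8.38, 8.36, 8.19 and 8.18 in acLDL arrays. It rose by 0.69 ± 0.07 (SE; limma adjusted p = 2.50e-05) without overlap. Eif4ebp1, a translation repressor that mTOR inactivates, rose by 0.46 and Mlx by 0.34, and Rheb, the activator of mTOR, fell by 0.30 on the log2 scale.

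Of 9 measured genes of the p53 response and nucleolar stress 2 rose and 2 fell, or 44.4% called against 23.4% of all genes. Phlda3 and Zmat3 rose by 0.52 and 0.37, and Mdm2 and Mdm4, which restrain p53, fell by 0.45 and 0.42 on the log2 scale. The other 5 did not pass, with differences from -0.02 (Ccng1) to 0.17 (Eda2r). Activity of p53 was not tested. Of 22 proliferation genes 18 rose and 1 fell, or 86.4% called against 23.4% of all genes, with a median difference of 0.36. The rises were led by Ccna2 at 0.82, Top2a at 0.69, Mki67 at 0.68 and Bub1b at 0.48. Unloaded means of these were 6.10, 6.19, 6.39 and 6.33, near the background mark of 6.13. The gene that fell was Pcna, the brightest of the list, from 11.00 ± 0.08 to 10.80 ± 0.02 (SD, n = 4; limma adjusted p = 0.0338). The part of proliferation genes in the changes of the ribosome biogenesis genes was not tested.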

How the data were processed

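Expression was measured on 4 unloaded and 4 acLDL arrays, with groups and replicate numbers from the sample descriptions. Per the submitters' processing notes the authors used RMA (robust multi-array averaging), and the deposited table holds log2 expression. No version or setting was stated. RMA matches the distributions of arrays, which hides a change that all genes share, and compresses dim genes. Medians of the deposited values still differed, from 6.23 in unloaded array 1 to 6.36 in unloaded array 3.

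The deposited table held 35557 probe sets, of which 21789 were annotated to 1 symbol, 1621 to several and 12147 to none. Each gene took its one-symbol probe set with the highest mean. A probe set with several symbols was kept where none of them had its own. This gave 19938 genes and 320 shared probe sets. Differences (acLDL minus unloaded) were tested two-sided and without a block by lmFit and eBayes of limma 3.58.1 (R 4.3.3), with Benjamini-Hochberg adjustment over all 20258 and a threshold of 0.05. The step was tested on simulated data. Intervals are 95% moderated t intervals.

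Members and lists were chosen with earlier results of these data known, so lists are described by counts and medians only. For each role the genes with the smallest p in each direction are given by array. Of each other list up to 4 genes with the largest change past the threshold and groups apart are named, of marker lists the brightest member where it bears on a result, and Myc always. Cma1, Col1a2, Pdgfra, Wt1, Taf1c, Taf1d, Rps6, Rpl5, Mphosph10 and the snoRNAs were named after their values were seen. The same holds for Cd14, Fcgr1, Pcna, Ccng1 and Eda2r. Names matching no probe set were not analysed here. Promoters and gene spans came from RefSeq tables of GRCm38.p6. Figures were drawn with matplotlib 3.10.9. The number of arrays limits precision, and the standard errors of the 46 genes were 0.06 to 0.14.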

Additional observations from a re-analysis of the deposited data

Results flagged for a closer look

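In 4 of 92 groups of 4 arrays (46 genes, 2 conditions) 1 array lay far from the other 3, by Dixon's test of the gap over the group's range, where chance flags about 1 in 20. Unloaded array 2 was lowest for Utp15 at 8.47, the nearest other array being 8.60. It was also lowest for Bop1, at 7.86 with the nearest at 8.02. Unloaded array 1 was highest for Utp18, at 7.98 with the nearest at 7.65. For Gnl3, acLDL array 3 was lowest at 8.47 with the nearest at 8.63.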

How the results depend on the processing

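Of 920 comparisons of a single gene under an alternative, 19 lost a call, 25 gained one and 0 turned a called direction. The number of the 46 genes called was 14 to 18 over the fits that lacked 1 array each (8 to 11 higher, 6 to 7 lower), and the median difference was 0.06 to 0.12. Repeated quantile normalisation gave 13 falls in place of 7, with 10 rises, and 2600 falls and 2617 rises among all genes. Without unloaded arrays 2 and 3 there were 11 falls (2295 among all genes) and a median of 0.026. The median was 0.14 without unloaded arrays 1 and 4. The cause was not tested. Leaving out each array gave 34 to 45 calls among the other ribosome biogenesis genes, 32 to 37 among ribosomal protein genes and 3690 to 4685 among all genes (2045 to 2619 higher, 1645 to 2103 lower), against 43, 37 and 4747. Centring on the median of all deposited probe sets, chosen after seeing the data, gave 2831 rises and 1431 falls among all genes in place of 2593 and 2154, and 10 and 6 among the 46. The other counts named here stayed within 1.5 times their value. The deviations of same-numbered arrays of the 2 groups correlated at 0.11, -0.16, 0.30 and 0.14, and 1 unloaded array correlated best with its own number. These values cannot show whether same-numbered arrays share a mouse or a day, which the labels do not state. A fit with the replicate number as a block called 18 of the 46 genes, and 4968 of all.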
